A study of Homo sapiens with 12 samples.

Results

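The mRNAs of 8 proteins that bind AU-rich elements were followed through transcriptional inhibition in U2OS cells, a human osteosarcoma line. The genes were taken by name: ZFP36, ZFP36L1, ZFP36L2, KHSRP and HNRNPD, whose products mostly promote mRNA decay, and ELAVL1, TIA1 and TIAL1, whose products stabilise mRNA or repress its translation. They are 8 of the 22379 genes in the table, and all 8 were among the 13811 genes that passed a filter on low values, an untreated mean of at least 10.

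The experiment had 12 libraries in 6 groups of 2 replicates. Pools of U2OS cells, not single clones, had been transfected with a plasmid that carries Cas9 and a guide RNA, so that all groups share Cas9, puromycin selection and the parental line, and each pool may hold cells that were not edited. The guide was nontargeting (NONT) or was directed at NUP93, a nuclear pore protein (NUP93-KO), or at EXOSC5, a subunit of the RNA exosome, which degrades RNA from its 3′ end (EXOSC5-KO). Each of the 3 genotypes was left untreated, which the labels also give as DMSO, or received 1 μM triptolide for 8 h. Triptolide inhibits the XPB helicase of TFIIH and thereby blocks initiation by RNA polymerase II. No source states that replicates came from separate cultures, so the p-values below measure only the spread between these libraries.

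AU-rich elements are stretches of A and U in the 3′ untranslated region (3′UTR) of many short-lived mRNAs, among them mRNAs of cytokines and immediate early genes, and their core is the pentamer AUUUA. Proteins of the ZFP36 family bind the longer form UAUUUAU through a pair of CCCH zinc fingers and bring in the CCR4-NOT deadenylase, after which the mRNA is degraded. ELAVL1 (HuR) binds overlapping sites and protects the mRNA, whereas TIA1 and TIAL1 hold such mRNAs back from translation and take part in stress granules. The mRNA of ZFP36 is itself known as a target of its own protein.

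The 3′UTRs of the members were therefore searched on the transcript strand for TATTTAT, written in DNA letters as in the genome, in the MANE transcript of each gene. ZFP36, ZFP36L1 and ZFP36L2 each held 3 copies, ELAVL1 held 5, TIA1 and TIAL1 held 1 each, and KHSRP and HNRNPD held none. The following windows of 25 bases are shown because the paralogues and ELAVL1 share this motif while their responses to triptolide, given below, lay far apart. Capitals mark the TATTTAT at the centre of each window, the ELAVL1 window holds a further copy in lower case, and all windows are written 5′ to 3′ on the strand of the transcript.
ZFP36, chr19:39409183-39409207, plus strand: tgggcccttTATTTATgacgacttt
ZFP36, chr19:39409223-39409247, plus strand: attttatagTATTTATatatattgg
ZFP36L1, chr14:68788338-68788362, minus strand: atcaaaacgTATTTATtgccaaact
ZFP36L1, chr14:68788079-68788103, minus strand: ctgttggatTATTTATtttagaaat
ZFP36L2, chr2:43223450-43223474, minus strand: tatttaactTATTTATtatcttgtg
ZFP36L2, chr2:43223214-43223238, minus strand: tgtatgtaaTATTTATttcattaat
ELAVL1, chr19:7961842-7961866, minus strand: atttataccTATTTATgtatttatt
TIA1, chr2:70212592-70212616, minus strand: gatacaatgTATTTATttaaaagat
TIAL1, chr10:119575557-119575581, minus strand: aaatgaaaaTATTTATtttaaaaat

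Coordinates are those of GRCh38. Among all MANE 3′UTRs, 31.6% held TATTTAT at least once. The 3′UTR of ZFP36 is 708 bases long, and among 3′UTRs within 20% of that length 1.46% held at least as many copies. The corresponding shares were 5.20% for ZFP36L1 (1871 bases), 4.65% for ZFP36L2 (1917 bases) and 3.94% for ELAVL1 (4910 bases), whose 5 copies lie close together. The shorter motif ATTTA, which every TATTTAT contains, occurred 13 times each in ELAVL1 and TIA1, 8 times in ZFP36L1, 5 times each in ZFP36, ZFP36L2 and TIAL1, 2 times in HNRNPD and once in KHSRP. A match describes the letters of the window and does not show binding.

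The values are gene abundances that the authors scaled to ERCC spike-in RNAs added per cell, so a lower value stands for less mRNA per counted cell. Approximate depth was 8.60 M to 11.96 M reads per library (M, mega), and the sum over genes was 11.3 M to 16.4 M without drug and 4.90 M to 8.79 M after triptolide. In bulk libraries, fewer expressing cells and less RNA per cell cannot be told apart. The untreated NONT replicates differed by a median of −0.51 on the log2 scale (replicate 1 minus replicate 2) and the treated ones by 0.25, against −0.14 to 0.11 in the other groups. EXOSC5 mRNA was lower in EXOSC5-KO than in NONT within each treatment (215.9 and 147.7 against 299.4 and 481.3 without drug, 75.2 and 101.5 against 265.8 and 207.8 with it), whereas NUP93 mRNA was lower in NUP93-KO without drug (1395 and 1432 against 1753 and 2489) but overlapped under triptolide. Of 8 mesenchymal and osteoblast markers, VIM, SPARC, COL1A1 and FN1 were abundant, RUNX2 and ALPL were present, COL1A2 was low (untreated mean 21.1) and BGLAP was near 0. Markers of epithelial cells were low (EPCAM 29.5 and CDH1 44.1), and those of blood and endothelial cells were at or near 0.

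The ZFP36 family lost nearly all of its mRNA in 8 h of triptolide in every genotype. ZFP36 (tristetraprolin, ENSG00000128016, chr19:39406847-39409412) was the least abundant member, with untreated values of 38.8 and 67.1 (NONT), 57.3 and 66.0 (NUP93-KO), and 55.6 and 47.1 (EXOSC5-KO). After triptolide it was listed at 0 in both NONT libraries. The treated NUP93-KO libraries stood at 0.710 and 0.834 and those of EXOSC5-KO at 4.44 and 0. A single read was worth about 0.490 to 0.999 in the treated libraries, so these values rest on no reads or a few. The groups did not overlap, and no fold change is given for NONT because both treated libraries were at 0, where the limma adjusted p-value was 3.66e-06. On the log2(value + 1) scale, which understates the change of so low a gene, NUP93-KO changed by −5.14 and EXOSC5-KO by −4.48 (SE 0.76 each), with limma adjusted p-values of 2.22e-05 and 7.86e-05. The EXOSC5-KO value rests on unequal libraries, and it was −5.71 without treated replicate 1 (4.44) and −3.26 without treated replicate 2, which was listed at 0.

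ZFP36L1 (ENSG00000185650, chr14:68787660-68796253, minus strand) was the most abundant of the 3 paralogues. NONT libraries held 2944 and 3910 without drug and 108.0 and 100.1 with it. The NUP93-KO values were 3227 and 3470 before and 230.0 and 191.2 after triptolide. For EXOSC5-KO they were 4456 and 3969 before, 341.5 and 340.8 after. Of the untreated mean, NONT kept 3.04%, NUP93-KO 6.29% and EXOSC5-KO 8.10%. Dividing each treated by each untreated library of a genotype gave 2.56% to 3.67%, 5.51% to 7.13% and 7.65% to 8.61%. These ranges did not overlap between the genotypes. The median gene also fell less in the knockouts, by log2 −0.92 in NUP93-KO and −1.08 in EXOSC5-KO against −1.62 in NONT. The log2 fold changes of ZFP36L1 were −5.01, −3.99 and −3.62 (SE 0.20 each), with limma adjusted p-values of 1.41e-11, 6.26e-10 and 8.12e-10.

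ZFP36L2 (ENSG00000152518, chr2:43222402-43226606, minus strand) was lower than ZFP36L1 in every library and lost more. The NONT replicates, at 760.8 and 880.2 untreated, dropped to 10.8 and 8.81. Those of NUP93-KO dropped from 764.2 and 779.9 to 21.9 and 28.9. Untreated EXOSC5-KO held 714.8 and 680.2, and treated EXOSC5-KO 11.2 and 8.23. NONT kept 1.20% of the untreated mean, NUP93-KO 3.29% and EXOSC5-KO 1.40%. The treated EXOSC5-KO and NONT libraries overlapped, and those of NUP93-KO lay above both. The log2 fold changes were −6.25, −4.89 and −6.04 (SE 0.30 each), with limma adjusted p-values of 7.66e-11, 2.94e-09 and 4.51e-10.

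**Figure D1:**
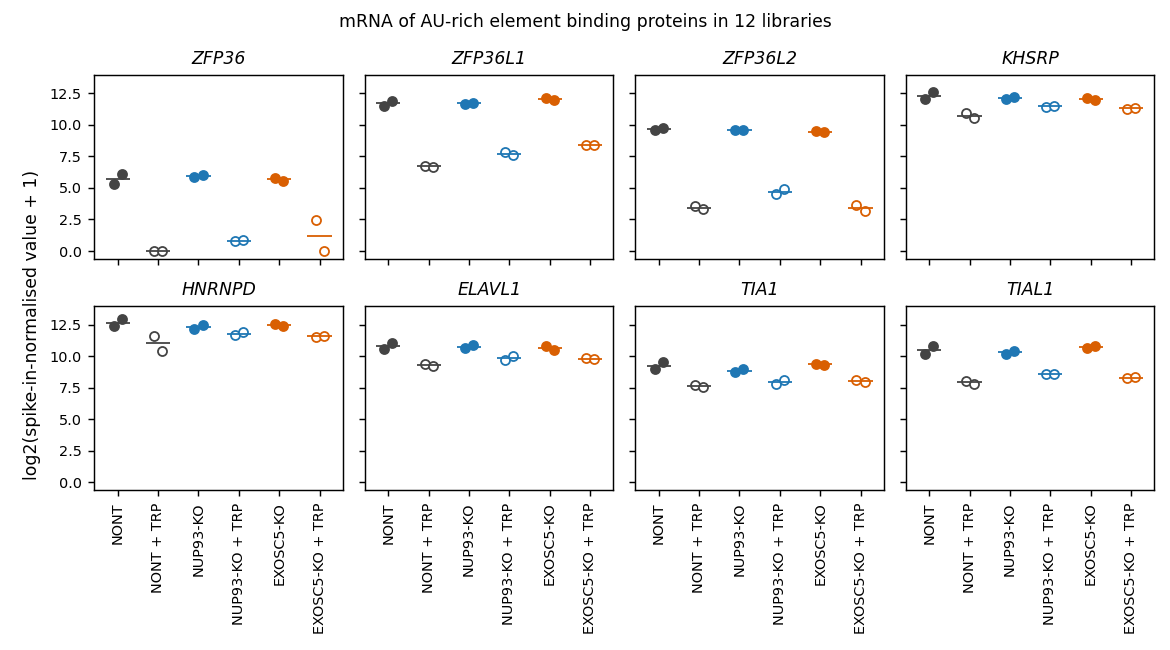
Abundance of the 8 mRNAs as log2(spike-in-normalised value + 1) in each of the 12 libraries (filled points untreated, open points after 1 μM triptolide (TRP) for 8 h, bars the mean of 2 replicates). ZFP36, ZFP36L1 and ZFP36L2 drop by more than the other 5 members in each genotype. Untreated and treated replicates overlap for none of the 8, and the share of all genes without such overlap was not determined. By limma call, a separate measure, NONT had 8 members lower (90.0% of all genes), NUP93-KO 7 (55.1%) and EXOSC5-KO 8 (64.3%).

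The other decay-promoting proteins, KHSRP and HNRNPD, lost far less. KHSRP (ENSG00000088247, chr19:6413102-6424811, minus strand), a KH-domain protein that recruits decay enzymes, had untreated NONT values of 4245 and 6134 and treated ones of 2015 and 1460. NUP93-KO cells went from 4200 and 4860 to 2745 and 2904. EXOSC5-KO cells went from 4588 and 4022 to 2522 and 2663. The mean that remained was 33.5%, 62.4% and 60.2%, and the log2 fold changes were −1.57, −0.68 and −0.73 (SE 0.21 each; limma adjusted p-values 3.51e-06, 0.0109 and 0.00607). Treated replicates lay below untreated ones in each genotype. The call in NUP93-KO was lost without its untreated replicate 2 (−0.57) or its treated replicate 1 (−0.64), and that in EXOSC5-KO without its untreated replicate 1 (−0.63).

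HNRNPD (AUF1, ENSG00000138668, chr4:82352498-82374503, minus strand), made as several isoforms that mostly favour decay, was 5328 and 7710 in untreated NONT and 3078 and 1359 after triptolide. The treated NONT replicates of this gene lay far apart, and the log2 fold change of −1.65 ± 0.29 became −1.06 without the second of them and −2.24 without the first. NUP93-KO cells held 4559 and 5724 untreated and 3197 and 3801 treated, a log2 fold change of −0.55 ± 0.29 with a 95% interval of −1.16 to 0.05 that did not pass (limma adjusted p-value 0.115). Without either treated NONT replicate the same difference passed, at adjusted p-values of 0.0303 and 0.0305, as it did with libraries scaled to the same mitochondrial sum (−0.85, 0.0102). EXOSC5-KO cells held 5910 and 5427 untreated against 2967 and 3038 treated, a difference of −0.92 ± 0.29 (limma adjusted p-value 0.0106), a call that was lost without the untreated replicate 1 of that genotype (−0.85) and, at an adjusted p-value of 0.0528, in limma without trend.

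Of the proteins that stabilise or silence mRNA, ELAVL1 (ENSG00000066044, chr19:7958573-8005659, minus strand) was at 1485 and 2148 in NONT before the drug and at 675.5 and 583.2 after it. For NUP93-KO the values were 1623 and 1830 before, 807.0 and 1015 after. EXOSC5-KO gave 1734 and 1433 untreated against 910.1 and 876.6 treated. It kept 34.7%, 52.8% and 56.4% of its untreated mean, against 33.5%, 62.4% and 60.2% for KHSRP. The log2 fold changes were −1.51, −0.93 and −0.82 (SE 0.21 each), with limma adjusted p-values of 6.02e-06, 0.00123 and 0.00285.

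TIA1 and TIAL1 are close relatives, and TIAL1 lost more. TIA1 (ENSG00000116001, chr2:70209444-70248660, minus strand) was at 502.5 and 724.2 in NONT before the drug and at 211.8 and 184.0 after it. NUP93-KO gave 413.2 and 489.9 untreated against 223.9 and 267.1 treated, and EXOSC5-KO 659.5 and 636.9 against 266.3 and 244.3. Treated and untreated replicates of TIA1 were thus apart in each genotype, with the widest gap in EXOSC5-KO. TIAL1 (TIAR, ENSG00000151923, chr10:119571802-119597029, minus strand) was at 1121 and 1787 in NONT before the drug and at 255.9 and 223.7 after it. NUP93-KO gave 1135 and 1379 against 383.9 and 376.2, and EXOSC5-KO 1629 and 1790 against 297.3 and 314.3. TIA1 kept 32.3%, 54.4% and 39.4% of its untreated mean and TIAL1 16.5%, 30.2% and 17.9%. The log2 fold changes of TIA1 were −1.61, −0.88 and −1.34 (SE 0.23 each; limma adjusted p-values 8.23e-06, 0.00387 and 9.00e-05), the one in NUP93-KO being lost without its untreated replicate 2 (−0.75) or its treated replicate 1 (−0.75). Those of TIAL1 were −2.56, −1.72 and −2.48 (SE 0.22 each; limma adjusted p-values 2.66e-08, 5.50e-06 and 9.45e-08).

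On this scale 8 of 8 members were called lower in NONT, where 90.0% of all tested genes were, 7 of 8 in NUP93-KO (55.1% of all), 8 of 8 in EXOSC5-KO (64.3% of all) and 8 of 8 in the average over the genotypes (90.7% of all), so the counts in NONT and in the average lie near the background. None was called higher, against 0.0507%, 0.138%, 0.0796% and 0.0507% of all genes. The size of the change differed more. The median over the 8 in NONT was −2.10, that in NUP93-KO −1.32 and that in EXOSC5-KO −1.91, against −1.62, −0.92 and −1.08 for the median gene.

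Averaged over the genotypes, the members fell into distinct ranges. ZFP36L2 changed by −5.72 ± 0.17 (SE) on the log2 scale, and 0.977% of tested genes lay below it. ZFP36 was below all but 2.07% of genes and ZFP36L1, at −4.21 ± 0.11, below all but 5.18%. The average response of ZFP36, whose treated values rest on no reads or a few, ran from −7.13 to −2.57 over the alternatives. TIAL1 followed at −2.25 ± 0.13, with 23.7% of genes below it. The other 4 lay around the median gene (−1.20): TIA1 at −1.28 ± 0.13 (47.2% below), ELAVL1 at −1.08 ± 0.12 (54.2%), HNRNPD at −1.04 ± 0.17 (56.3%) and KHSRP at −0.99 ± 0.12 (58.1%).

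**Figure D2:**
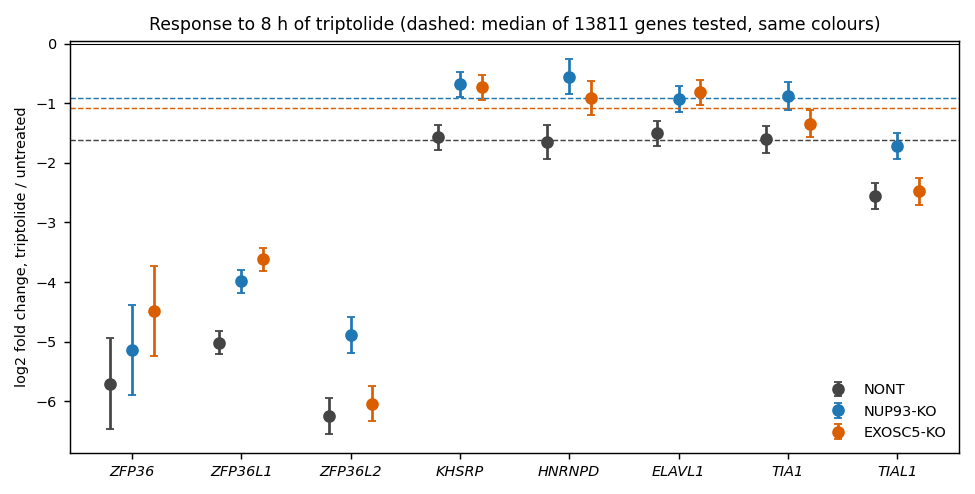
Response to triptolide as log2 fold change on the spike-in scale for each member and genotype, with bars of 1 SE on either side from limma and dashed lines for the median of the 13811 tested genes in each genotype. ZFP36, ZFP36L1, ZFP36L2 and TIAL1 lie below these medians in all genotypes, and the treated NONT value of ZFP36 rests on libraries listed at 0.

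**Figure D3:**
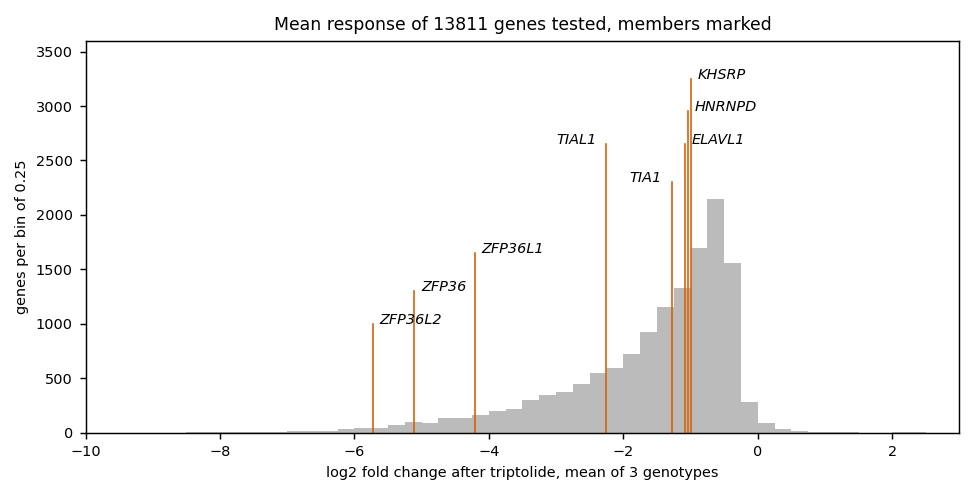
Distribution over the 13811 tested genes of the response to triptolide averaged over the 3 genotypes (log2 fold change, spike-in scale), with the 8 members marked. The ZFP36 paralogues sit in the lower tail, with 0.977% to 5.18% of genes below them, and KHSRP, HNRNPD, ELAVL1 and TIA1 sit near the median of −1.20.

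The direction for the members near the median gene depended on the scale. When libraries were instead scaled by median of ratios, which holds the typical gene constant, the average response was 0.21 for KHSRP, 0.16 for HNRNPD, 0.12 for ELAVL1 and −0.08 for TIA1, while it was −1.05 for TIAL1, −3.01 for ZFP36L1 and −4.56 for ZFP36L2. A second fit took each gene relative to the median of its library. There ZFP36, ZFP36L1, ZFP36L2 and TIAL1 were the 4 members called lower in each genotype and in the average, where 20.1%, 20.7%, 19.8% and 25.5% of all genes were. The average differences on that scale were −4.03 ± 0.13 for ZFP36L2, −2.51 ± 0.06 for ZFP36L1 and −0.55 ± 0.06 for TIAL1 (limma adjusted p-values 3.94e-10, 9.67e-11 and 1.04e-05). The call of TIAL1 on this scale was lost in NONT without its untreated replicate 2 (−0.31) and in NUP93-KO without its untreated replicate 2 (−0.27) or its treated replicate 2 (−0.29), and without the filter on low values in both (−0.097 and −0.029). That of ZFP36 was lost in NONT at a pseudocount of 10. Both treated NONT libraries were listed at 0, so the size of that difference depends on the pseudocount. The same fit called 3, 4, 3 and 4 members higher, against 45.3%, 43.3%, 43.3% and 52.8% of all genes. These calls rest on a reference at which the median gene itself moved up by 0.50, and 0, 1, 2 and 2 of them were left when libraries were centred on the median deviation of their genes, a centring added after the values were seen. With that centring 3961, 3906, 3858 and 5116 of the 13811 genes were higher.

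Most genes with TATTTAT in their 3′UTR lost far less than the ZFP36 paralogues. Over tested genes with a MANE 3′UTR, the median average response was −1.10 for the 8045 genes without the motif, −1.37 for 2663 with 1 copy, −1.43 for 1129 with 2 and −1.47 for 947 with 3 or more. The median 3′UTR length rose along the same classes, from 886 to 2073, 2935 and 4609 bases, and among 3′UTRs of 1000 to 2500 bases the medians were closer together, at −1.28, −1.40, −1.40 and −1.44. Within the class of 3 or more copies, 1.58% of genes lay below ZFP36, 4.65% below ZFP36L1 and 0.528% below ZFP36L2, but 65.1% lay below ELAVL1. In the class with 1 copy, 52.8% lay below TIA1 and 26.6% below TIAL1, and among genes without the motif 54.6% lay below KHSRP and 52.8% below HNRNPD. The paralogues and ELAVL1 were in the same motif class, and their responses lay apart. They differed in copies per kilobase of 3′UTR, with 4.237 in ZFP36, 1.603 in ZFP36L1, 1.565 in ZFP36L2 and 1.018 in ELAVL1. Whether the motif bears on the response was not tested.

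**Figure D4:**
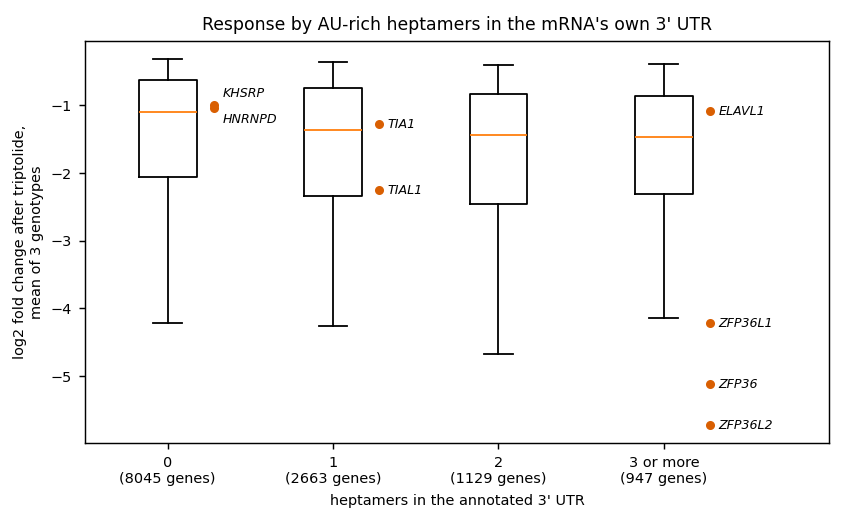
Average response to triptolide (log2 fold change, spike-in scale) by the number of TATTTAT copies in the 3′UTR, with boxes from the 25th to the 75th percentile of the genes in a class, whiskers from the 5th to the 95th, and points for the members. ZFP36, ZFP36L1 and ZFP36L2 lie far below the median of their class, −1.47, and ELAVL1 lies above it.

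Per kilobase of MANE transcript, which allows genes to be compared, HNRNPD had the highest untreated level at 1883 ± 344 (SD, n = 6 libraries of 3 genotypes), followed by ZFP36L1 at 1214 ± 183 and KHSRP at 1093 ± 181, which did not differ beyond their spread. TIAL1 followed at 385.0 ± 80.1, ELAVL1 at 282.3 ± 43.2, ZFP36L2 at 206.7 ± 18.5, TIA1 at 123.2 ± 25.9 and ZFP36 at 31.7 ± 6.26. The ranges of TIAL1 and ELAVL1 overlapped, as did those of ELAVL1 and ZFP36L2. ZFP36L1 made up 81.1% to 86.8% of the summed level of the paralogues per kilobase without drug and 88.4% to 98.1% after triptolide.

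The summed level of the 5 decay-promoting members per kilobase was 5.03 to 6.08 times that of the 3 others without drug, and 4.22 to 6.75 times after triptolide. Not divided by length, the ratio was lower, at 3.66 to 4.28 without drug and 2.95 to 4.56 with it. Both ends of each treated range were NONT libraries, and they follow HNRNPD, whose values differed between them. Per kilobase and with HNRNPD left out, the ratio was 2.93 to 3.51 without drug and 1.94 to 2.64 with it, in ranges that did not overlap. For the ZFP36 family alone against ELAVL1, TIA1 and TIAL1, the ratio was 1.61 to 2.00 in untreated libraries. With triptolide it was 0.173 and 0.183 for NONT, 0.293 and 0.222 for NUP93-KO, and 0.416 and 0.412 for EXOSC5-KO. These are mRNA levels, and the proteins were not measured.

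Loss of NUP93 or EXOSC5 was next compared with NONT without drug, to ask whether the knockouts alone altered these mRNAs. On the spike-in scale no member was called in either knockout (limma, with 0 members at an unadjusted p-value under 0.05), against 0.00724% of all genes lower and 0.0145% higher in NUP93-KO. For EXOSC5-KO these shares were 0.0362% and 0.485%. The log2 differences of the members ranged from −0.42 (TIA1, 95% interval −0.91 to 0.07) to 0.26 (ZFP36, −1.34 to 1.87) in NUP93-KO and from −0.25 (KHSRP, −0.69 to 0.19) to 0.31 (ZFP36L1, −0.10 to 0.72) in EXOSC5-KO. Relative to the library median, KHSRP alone was called, lower in EXOSC5-KO by −0.34 ± 0.07 (limma adjusted p-value 0.0185), where 3.46% of genes were lower and 2.23% higher. None was called in NUP93-KO on that scale, against 0.420% of genes lower and 0.478% higher. That call was lost on leaving out any of the 4 untreated NONT and EXOSC5-KO libraries.

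Under triptolide 5 of 8 members were higher in NUP93-KO than in NONT on the spike-in scale, against 41.9% of all genes, and 2 of 8 were higher in EXOSC5-KO, against 39.2%. In NUP93-KO the log2 differences were 1.28 ± 0.30 for ZFP36L2, 1.00 ± 0.20 for ZFP36L1, 0.77 ± 0.29 for HNRNPD, 0.72 ± 0.21 for KHSRP and 0.67 ± 0.22 for TIAL1, with limma adjusted p-values of 0.00780, 0.00346, 0.0414, 0.0167 and 0.0276. The median gene was higher by 0.66, and with libraries scaled to the same total, by median of ratios or to the same mitochondrial sum 0 of these calls were left. Fewer members were called without NONT triptolide replicate 2 or without either treated NUP93-KO library. Without that NONT library the difference of HNRNPD was 0.18. Relative to the library median no member was called, against 3.30% of genes lower and 2.71% higher.

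In EXOSC5-KO the members called were ZFP36L1, higher by 1.70 ± 0.20, and KHSRP, higher by 0.60 ± 0.21 (limma adjusted p-values 7.47e-05 and 0.0349), where the median gene was higher by 0.65. The call of KHSRP was lost without NONT triptolide replicate 2 (0.36) or either treated EXOSC5-KO library (0.63 and 0.56), and its difference was 0.023 with libraries scaled to the same total, −0.075 by median of ratios and −0.24 at the same mitochondrial sum. ZFP36L1 was at 341.5 and 340.8 against 108.0 and 100.1, and 93.9% of genes had a smaller difference. It was called under every alternative on the spike-in scale, with adjusted p-values of up to 0.00985, and relative to the library median it was higher by 0.99 ± 0.11 (0.000472, where 5.20% of genes were higher). ZFP36L2 had the opposite sign. Its spike-in difference was −0.02 ± 0.30, 7.25% of genes had a smaller one, and relative to the library median it was lower by −0.73 ± 0.22 (0.0471, where 9.96% of genes were lower), a call that had adjusted p-values of up to 0.193 over the alternatives and was lost without any 1 of the 4 NONT libraries, either untreated NUP93-KO library, either untreated EXOSC5-KO library or EXOSC5-KO triptolide replicate 2.

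The response itself was compared between genotypes by the interaction term. In EXOSC5-KO, 1 of 8 members lost less than in NONT, against 0.319% of all genes. This was ZFP36L1, with a difference in log2 fold change of 1.39 ± 0.28, a 95% interval of 0.81 to 1.98 and a limma adjusted p-value of 0.0480, where the median gene differed by 0.57. The call was lost under 8 of the alternatives on all libraries. It was also lost without any 1 of the 4 EXOSC5-KO libraries, without replicate 2 of untreated or treated NONT, and without either untreated NUP93-KO library. Which members passed also depended on replicate 1 of untreated and of treated NONT. The difference of ZFP36L1 ranged from 0.83 to 1.60 over all these settings. Relative to the library median it was 0.77 ± 0.15 (adjusted p-value 0.161, where 0.0434% of genes were higher). In NUP93-KO no member passed, against 0.760% of all genes higher. At an unadjusted limma p-value under 0.05, 6 of 8 members were higher, as were 5709 of the 13811 genes. The differences there ran from 0.56 (ZFP36) to 1.36 (ZFP36L2), and the median gene differed by 0.74. The absence of calls did not hold without NONT untreated replicate 1 or without NONT triptolide replicate 1. Between the knockouts no member passed, against 0.0145% of all genes lower and 0.00724% higher, the largest difference being −1.15 for ZFP36L2 (95% interval −2.05 to −0.25, limma adjusted p-value 0.984).

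The ratio between members within a library does not depend on how libraries are scaled, and 3 pairs are given as a description, chosen after the values were seen. The log2 ratio of ZFP36L1 to ZFP36L2 was 1.95 and 2.15 in untreated NONT and 2.08 and 2.15 in untreated NUP93-KO, and somewhat higher, 2.64 and 2.55, in untreated EXOSC5-KO. After triptolide the NONT libraries reached 3.32 and 3.51, those of NUP93-KO 3.40 and 2.73, and those of EXOSC5-KO 4.93 and 5.37. The treated EXOSC5-KO libraries lay above all others. The log2 ratio of TIA1 to TIAL1 was also higher with drug in each genotype. It was −1.16 and −1.30 against −0.27 and −0.28 for NONT, −1.46 and −1.49 against −0.78 and −0.49 for NUP93-KO, and −1.30 and −1.49 against −0.16 and −0.36 for EXOSC5-KO. By contrast, the log2 ratio of KHSRP to ELAVL1 stayed between 1.32 and 1.77 over all 12 libraries.

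**Figure D5:**
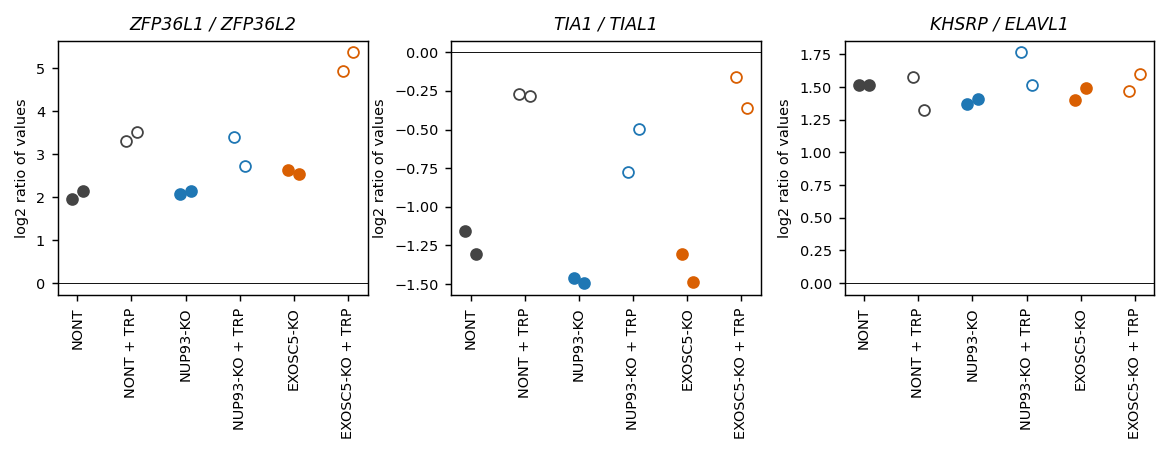
Log2 ratio of 3 pairs of members in each of the 12 libraries (filled points untreated, open points after triptolide; the vertical axes differ between pairs). ZFP36L1 over ZFP36L2 reaches 4.93 and 5.37 in treated EXOSC5-KO, against at most 3.51 in the other treated libraries, while KHSRP over ELAVL1 stays between 1.32 and 1.77.

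The other genes of the pathway were read from 3 lists. Of 25 further RNA-binding proteins that act on AU-rich or related elements, 23 were tested. In the average over genotypes 22 were lower and 0 higher, near the 90.7% and 0.0507% of all genes. Their median was −1.01 against −1.20 for all genes. In this and the next 2 lists, extremes were named only among genes with an untreated mean of at least 100. Among these ZC3H12C, an endonuclease-type zinc finger protein, fell most (−2.92), followed by HNRNPA0 (−2.19) and the HuR relative ELAVL2 (−2.09). YBX1, an abundant mRNA-packaging protein, was at −0.35 and HNRNPA2B1 at −0.42, while FUBP3, a relative of KHSRP, was at −0.24 and did not pass (limma adjusted p-value 0.134). Of the list genes with an untreated mean of at least 100, none fell as far as ZFP36L1.

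Of 19 kinases, phosphatases and 14-3-3 proteins that act on or bind ZFP36 proteins, all were tested. In the average 17 were lower and 0 higher, again near the shares of all genes (90.7% and 0.0507%), and the median was −0.98. DUSP1, the phosphatase that switches off p38, fell by 7.90 on the log2 scale and was below all but 0.0290% of genes. The kinase p38α (MAPK14) fell by 3.75, and MAPKAPK2, the kinase downstream of it that phosphorylates ZFP36, fell by 1.64, with 35.8% of genes below it. The catalytic phosphatase subunit PPP2CA, which reverses that phosphorylation, was at −2.25 and the 14-3-3 protein YWHAE at −0.56. MAPK3 (−0.14) and AKT1 (−0.27) did not pass, with limma adjusted p-values of 0.354 and 0.163. For AKT1 the genotypes differed in sign, with −1.70 in NONT against 0.35 (NUP93-KO) and 0.53 (EXOSC5-KO), a difference that is given as values and not as a call.

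Of 32 mRNAs known to carry AU-rich elements, 26 were tested. In the average 22 were lower and 1 higher, where 90.7% of all genes were lower and 0.0507% higher, and the median was −1.99. By genotype, 24, 18 and 20 were lower in NONT, NUP93-KO and EXOSC5-KO, against 90.0%, 55.1% and 64.3% of all genes. In the same order 0, 1 and 1 were higher, against 0.0507%, 0.138% and 0.0796% of all genes. Among genes of the list with an untreated mean of at least 100, the immediate early gene JUN had the deepest change. It lay below all but 0.0145% of tested genes, and MYC (−7.10) and the NF-κB inhibitor NFKBIA (−6.83) followed. CXCL8, a chemokine, was the gene called higher, by 0.54 ± 0.15 (limma adjusted p-value 0.00360), with a response of −0.10 in NONT against 1.08 (NUP93-KO) and 0.63 (EXOSC5-KO). The chemokine CCL2 (0.04) and the protease PLAU (−0.24) did not pass. JUN and CXCL8 lay near opposite ends of all responses, with 99.8% of genes below CXCL8.

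The genes whose pattern was most like each member were found by Pearson's r over the 12 libraries, on log2 values relative to the library median, among genes with an untreated mean of at least 100. The treated and untreated libraries form separate clusters for the strongly changed members, so a high r there reflects mainly that separation, and genes with a much smaller or larger drop can reach it. They were ZNF576 (0.985), HPS4 and ZKSCAN2 for ZFP36, TRIM32 (0.997), GSPT2 and SLC30A1 for ZFP36L1, and LEO1 (0.995), POM121 and IER5 for ZFP36L2. For KHSRP they were U2AF2 (0.994), IGSF3 and NXPH4, for HNRNPD COL5A1 (0.974), CIRBP and LMNA, and for ELAVL1 QTRT1 (0.983), APBB1 and SLC25A10. For TIA1 they were STARD4 (0.976), UBE2E2 and TBC1D31, and for TIAL1 SMURF2 (0.958), ARID2 and THUMPD2. No member was among the 3 nearest of another.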

How the data were processed

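Polyadenylated RNA was sequenced from 12 libraries. The authors lysed counted cells, added ERCC RNAs per cell, pseudoaligned reads with kallisto 0.46.1 to Ensembl GRCh38 transcripts and the ERCC sequences, and kept protein-coding genes. The deposited values are a spike-in signal per gene, namely estimated counts that the authors divided by DESeq2 size factors from the ERCC transcripts. An error in cell number or spike-in volume moves all genes of a library together. ERCC transcripts were 92 of the 22471 rows. Whole reads were not recovered (17.6% to 27.0% of low values lay within 0.02 of a whole multiple), so no count model was used, and no counting interval is given.

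Groups came from the sample labels. Genes with an untreated mean of at least 10 were analysed as log2(value + 1) in limma 3.58.1 (R 4.3.3, lmFit and eBayes with trend, 6 group means, all 12 libraries, two-sided, Benjamini-Hochberg over 13811 genes, threshold 0.05), tested on simulated data. Reads of near-identical copies are shared by kallisto, and no member's row was identical to another. Sequences and transcripts came from GENCODE 44 on GRCh38, to which 19584 IDs matched. The genes named were the members, the 3 genes most like each, the targeted genes and, from each list, the extremes, with MAPKAPK2. These extremes were taken among tested genes with an untreated mean of at least 100. Members and lists were chosen with earlier results of these data known. Alternatives were pseudocounts of 0.1 and 10, an untreated mean of at least 50 or no filter, no trend, a replicate block, other scalings and each library left out. Summaries used pandas 2.3.3 under Python 3.11.15, and plots matplotlib 3.10.9.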

Additional observations from a re-analysis of the deposited data

Results flagged for a closer look

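The response of ZFP36L1 to triptolide differed between EXOSC5-KO and NONT cells by 1.39 ± 0.28 (SE) on the log2 scale, and the interaction term in limma gave an adjusted p-value of 0.0480. The response of ZFP36L1 was −3.62 in EXOSC5-KO and −5.01 in NONT, and EXOSC5-KO kept 7.65% to 8.61% of it, depending on which replicates were divided, against 2.56% to 3.67% in NONT. Over the alternatives on all libraries the adjusted p-value reached 0.256, with libraries scaled to the same mitochondrial sum. The untreated NONT replicates, which differed by a median of −0.51 over all genes, enter this contrast. Without untreated NONT replicate 2 the difference was 1.19, and the cause of that shift was not tested.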

How the results depend on the processing

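The calls of ZFP36, ZFP36L1, ZFP36L2 and TIAL1 after triptolide on the spike-in scale held under all alternatives. Of 1505 comparisons of a member's value with an alternative, 1374 kept direction and side of the threshold. The other members depended on the scale.

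Under median of ratios, the response was 0.070 for KHSRP, 0.13 for ELAVL1 and 0.030 for TIA1 in NONT, 0.21 for KHSRP, 0.34 for HNRNPD and 0.013 for TIA1 in NUP93-KO, 0.34 for KHSRP, 0.16 for HNRNPD and 0.25 for ELAVL1 in EXOSC5-KO, and 0.21, 0.16 and 0.12 for KHSRP, HNRNPD and ELAVL1 in the average. The differences from NONT under triptolide became −0.012 for TIAL1 in NUP93-KO and −0.075 for KHSRP in EXOSC5-KO, the latter −0.24 at the same mitochondrial sum. At the same total, the response was 0.017 for HNRNPD in NUP93-KO and 0.064 for KHSRP in EXOSC5-KO. Centred on the median deviation, TIA1 was at −0.23 in EXOSC5-KO and −0.032 in the average.

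Members lower after triptolide numbered 5 at the same total and 4 under median of ratios in NONT and in EXOSC5-KO, and 4 under median of ratios in NUP93-KO and in the average. Of the 13811 genes, 5270 and 5078 were lower at the same total in NONT and EXOSC5-KO. Under median of ratios 4213, 4149, 3992 and 5153 were lower in NONT, NUP93-KO, EXOSC5-KO and the average. In untreated EXOSC5-KO 1 was lower than in NONT under each of the 3 other scalings. There 289 (same total), 517 (median of ratios) and 719 (mitochondrial sum) of the 13811 genes were lower. Members higher in NUP93-KO than in NONT under triptolide numbered 2 without trend and 0 under each other scaling, and in EXOSC5-KO 1 without the filter, without trend and under each other scaling. In NUP93-KO 3727 of the 13811 genes were higher without trend, and 517, 479 and 127 under these scalings, in the same order. In EXOSC5-KO 4381 of 19002 genes were higher without the filter. Of 13811 genes, 3806 were higher there without trend, and 1231, 919 and 227 under these scalings. With an untreated mean of at least 50, 1 member lost less in NUP93-KO than in NONT, where 1051 of 11667 genes were higher. For EXOSC5-KO the count of such members was 0 with either pseudocount, without the filter, without trend and under each other scaling. From 2 to 27 of all genes were called higher under these settings. Relative to the library median, members higher numbered 0 in NONT, 1 in NUP93-KO and 2 in the average when centred on the median deviation, against 3961, 3906 and 5116 of 13811 genes. KHSRP in untreated EXOSC5-KO gave 0 calls without trend, where 180 of 13811 genes were lower. Members lower in treated EXOSC5-KO than in NONT numbered 2 with a pseudocount of 0.1 (1428 of 13811 genes), 5 without the filter (2347 of 19002) and 0 centred on the median deviation (1026 of 13811).

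With 1 library left out in turn, a fit in which the lone replicate is taken to vary like the other groups, members higher under triptolide ranged from 1 to 6 in NUP93-KO and from 1 to 3 in EXOSC5-KO, and members that lost less than in NONT from 0 to 7 and from 0 to 3. Relative to the library median, members lower in EXOSC5-KO ranged from 0 to 1 without drug and from 0 to 1 with it. Counts over all genes are not given for these fits. The ranges therefore do not show whether the members differed from other genes. The cause of these changes was not tested.

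The replicate numbers did not pair the libraries (r of −0.051 to 0.037 over 15 group pairs, 0 above 0.1). With the replicate block, ZFP36L1 in EXOSC5-KO minus NONT stayed at 1.39 with a limma adjusted p-value of 0.0692, so 0 members passed there, ZFP36L2 relative to the library median in treated EXOSC5-KO stayed at −0.73 with 0.0596, and no other call changed. Low reads limit the treated values of ZFP36.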
